A study of Mus musculus with 9 samples.

Results

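The 10 genes described here are imprinted genes that act on growth: H19, Igf2, Dlk1, Meg3, Rian, Peg3, Mest, Plagl1, Grb10 and Igf2r. They were taken by name from the 52780 genes of the count table, by no rule on measured values but with earlier results of these data known. All 10 were found and all 10 passed the filter on low counts, which 19545 genes passed. The cells were C2C12, an immortal mouse myoblast line that fuses into myotubes when serum is reduced, collected on day 4 of differentiation. The WT libraries carry the genotype label Wild Type, and the study shows this group as its siRNA control. KD mH2A1.1 and KD mH2A1.2 cells were transfected repeatedly with siRNA against 1 of the splice isoforms of macroH2A1, a histone H2A variant with a large globular domain. Each group held 3 libraries, which the study describes as independent biological replicates, and all 9 came from a single cell line, so nothing here distinguishes the parental alleles of a gene.

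Imprinted genes are transcribed mainly from the copy inherited from the mother or from the father, according to DNA methylation laid down in the germ line. Many of them set growth before birth: Igf2, a paternally expressed growth factor, drives it, whereas Igf2r, the receptor that clears this ligand, and Grb10, an adaptor that restrains insulin and IGF receptor signalling, hold it back. In muscle, H19 and Igf2 rise as myoblasts leave the cell cycle and fuse, and H19 is the source of a microRNA.

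The libraries held 36924252 to 42223108 counts each. H2afy, the gene of macroH2A1, was measured over both isoforms together, so its level cannot show which isoform was lost. It stood at 56.3, 62.4 and 61.0 CPM (counts scaled to the size of the library) in WT, at 38.8, 30.0 and 30.9 CPM in KD mH2A1.1 and at 46.8, 47.2 and 43.2 CPM in KD mH2A1.2. It passed the test in KD mH2A1.1 against WT (log2 fold change -0.85 ± 0.11 SE, adjusted p = 0.00331), while against WT the KD mH2A1.2 libraries, all lower, gave -0.39 ± 0.11 (adjusted p = 0.108). Myotube markers such as Myog, a regulator of differentiation, were abundant in every library, with a summed level over 8 markers of 10214 to 16118 CPM, and the 5 adipocyte markers summed to at most 1.55 CPM. A further list stood apart: all 6 interferon-induced genes passed as higher in KD mH2A1.1 against WT, beside 6.18% of all tested genes. Their sums were 79.1 to 404 CPM, against 8.97 to 10.6 CPM in WT and 7.92 to 12.8 CPM in KD mH2A1.2. Oas2, however, passed the filter on low counts only through the KD mH2A1.1 libraries.

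Several of the 10 genes carry microRNAs, and the mature sequences of those in H19, Igf2 and Mest, the most abundant hosts that have any, are shown because they are part of what these loci make. They are RefSeq sequences on GRCm38.p6, written 5′ to 3′, with the seed (bases 2 to 8) in capitals. miR-675 lies in an exon of H19, miR-483 in an intron of Igf2 and miR-335 in an intron of Mest.
miR-675-5p, chr7:142577112-142577133, minus strand: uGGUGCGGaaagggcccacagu
miR-675-3p, chr7:142577078-142577099, minus strand: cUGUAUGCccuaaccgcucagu
miR-483-5p, chr7:142654968-142654989, minus strand: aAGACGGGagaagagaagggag
miR-483-3p, chr7:142654932-142654952, minus strand: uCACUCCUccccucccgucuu
miR-335-5p, chr6:30741314-30741336, plus strand: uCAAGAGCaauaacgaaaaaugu
miR-335-3p, chr6:30741354-30741375, plus strand: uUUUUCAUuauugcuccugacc
No seed was shared among the 15 mature microRNAs found in 8 microRNA genes inside the 10 genes. Counts were looked up for 7 microRNA genes, which left out Mir1188 of Rian and Mir1906-1 of Meg3. They included Mir411, which lies beyond the end of Rian and inside none of the 10 genes. These 7 held 0 counts in every library except Mir483, which held 0 to 3 counts. The libraries were selected for polyadenylated RNA, so hosts and not microRNAs were measured. At 0 counts a library allows up to 3.

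Per length of exon, H19 stood far above the rest. Its level in WT was 8591 ± 2054 TPM (SD, n = 3; counts scaled by exon length and then to the same total in every library), and by count it was among the 17 most abundant genes of every library, with 0.404 to 0.994% of all counts. In WT, Peg3, a zinc finger protein, followed at 164 ± 13.7 TPM, Igf2 at 149 ± 65.2 TPM and Igf2r at 90.9 ± 8.06 TPM. The libraries of Igf2 overlapped both those of Peg3 and those of Igf2r, so these neighbours in the order did not differ beyond their spread. Mest, a hydrolase-like protein of the mesoderm, came next at 14.5 ± 5.63 TPM and Grb10 at 2.68 ± 1.03 TPM. Dlk1, a transmembrane ligand related to Delta, stood at 1.48 ± 1.36 TPM and overlapped both Grb10 and Plagl1. Plagl1, a zinc finger transcription factor, stood at 0.289 ± 0.195 TPM, Rian at 0.161 ± 0.0768 TPM and Meg3 at 0.05 ± 0.00814 TPM, both of them noncoding RNAs, and Plagl1 and Rian overlapped. The order of the 10 WT means was identical with the longest transcript of each gene as its length.

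**Figure D1:**
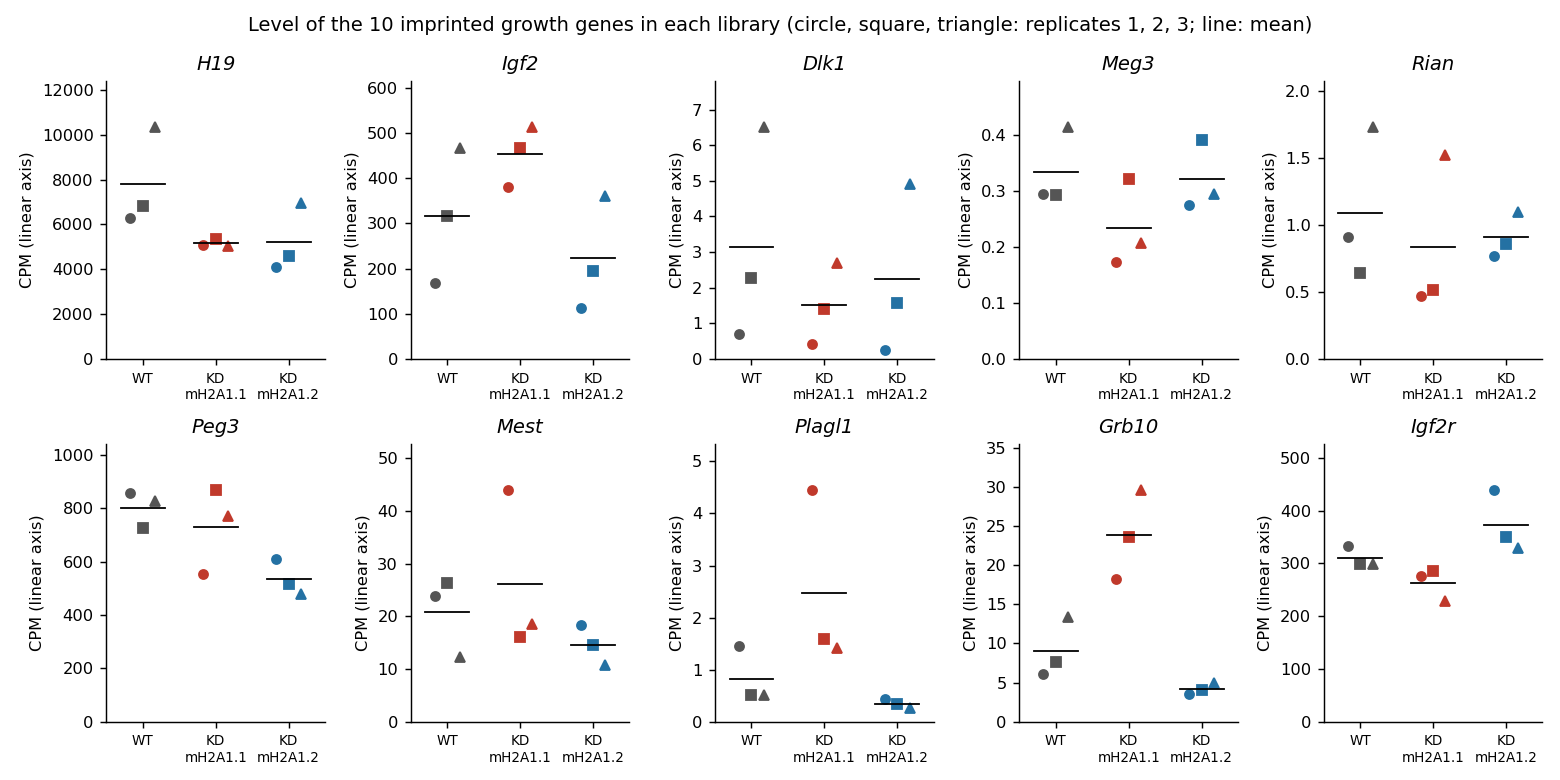
Level of each of the 10 genes in every library, as CPM on a linear axis from 0, by group; circles, squares and triangles are replicates 1, 2 and 3 and lines are means. The 3 KD mH2A1.1 libraries of Grb10, at 18.3 to 29.6 CPM, lie above the other 6, at 3.52 to 13.4 CPM.

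Knockdown of mH2A1.1 raised Grb10, and this was the sole member that passed the test against WT. No member passed in KD mH2A1.2 against WT. Between the knockdowns Grb10 and Plagl1 were higher and Igf2r was lower in KD mH2A1.1. A gene passed at an adjusted p of 0.05 or less in edgeR's quasi-likelihood test, with adjustment over all 19545 genes. For KD mH2A1.1 against WT 1 of 10 passed, beside 11.1% of all tested genes (6.18% higher, 4.93% lower). For KD mH2A1.2 against WT 0 of 10 passed, beside 2.35% of all tested genes (1.37% higher, 0.982% lower). At an unadjusted p under 0.05 the same comparison held 3 members, H19, Peg3 and Grb10, DESeq2 called 2, and edgeR with the replicate number as a block called 1 (and 1005 of all genes, against 460 without the block). Between the knockdowns 3 of 10 passed, beside 22.5% of all tested genes (12.0% higher, 10.5% lower). In KD mH2A1.1 against WT and between the knockdowns, 1 and 3 of 10 were shares near those of all genes. Nothing about the members as a set is drawn from these counts. The median log2 fold change of the members was -0.18 in KD mH2A1.1 against WT, -0.51 in KD mH2A1.2 against WT and 0.22 between the knockdowns, beside medians of -0.01, 0.00 and -0.01 over all tested genes. Groups did not overlap for 3, 3 and 4 members, beside 34.2%, 22.5% and 39.7% of all tested genes. Each pair of these comparisons shares the libraries of a group, so they are not independent of each other. In bulk RNA, fewer cells of a type and less RNA per cell cannot be told apart.

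**Figure D2:**
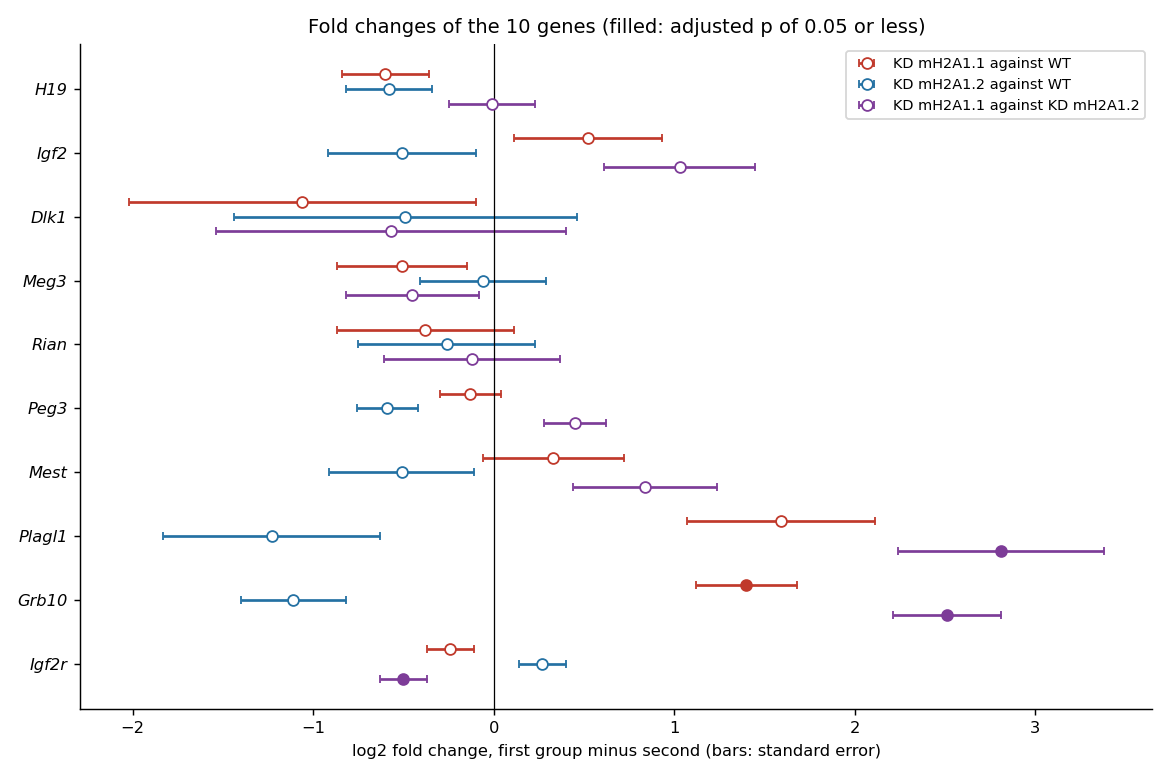
Log2 fold change of each of the 10 genes in the 3 comparisons, first group minus second, with standard errors as bars; filled points passed at an adjusted p of 0.05 or less. Filled points are Grb10 at 1.40 in KD mH2A1.1 against WT, and Grb10 at 2.51, Plagl1 at 2.81 and Igf2r at -0.50 between the knockdowns.

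Grb10 lies on chromosome 11 (GRCm38, 11930508 to 12038683, minus strand). It stood at 6.05, 7.67 and 13.4 CPM in WT, at 18.3, 23.6 and 29.6 CPM in KD mH2A1.1, and at 3.52, 4.07 and 4.94 CPM in KD mH2A1.2. The 3 groups did not overlap, with KD mH2A1.1 highest, WT between and KD mH2A1.2 lowest. Against WT it rose with mH2A1.1 knockdown by 1.40 ± 0.28 (log2 fold change ± SE, adjusted p = 0.0155), a fold of 2.64. With mH2A1.2 knockdown the value was -1.11 ± 0.29 (adjusted p = 0.0825), and with the replicate number as a block, which pairs these libraries, it was -1.06 and passed (adjusted p = 0.0092). Between the knockdowns the difference was 2.51 ± 0.30 (adjusted p = 0.000562). The rise against WT no longer passed without WT replicate 2 (adjusted p = 0.0698) or without KD mH2A1.1 replicate 3 (adjusted p = 0.0628), while the difference between the knockdowns passed with any of the 9 libraries left out (adjusted p of at most 0.00416).

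RefSeq gives Grb10 a pair of start sites, and both promoters are shown because Grb10 was the member that passed against WT. Each window covers 250 bases before to 50 bases after a start on GRCm38.p6, 5′ to 3′ on the minus strand, with every CG in capitals.
Grb10, chr11:12037371-12037670: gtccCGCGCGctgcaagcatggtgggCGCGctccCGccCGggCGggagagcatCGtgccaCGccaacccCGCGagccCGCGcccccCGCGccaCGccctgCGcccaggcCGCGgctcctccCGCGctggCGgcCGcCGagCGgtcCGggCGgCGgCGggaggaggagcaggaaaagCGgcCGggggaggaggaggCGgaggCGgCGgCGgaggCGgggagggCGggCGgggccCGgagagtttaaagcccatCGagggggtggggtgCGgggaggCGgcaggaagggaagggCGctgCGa
Grb10, chr11:12027922-12028221: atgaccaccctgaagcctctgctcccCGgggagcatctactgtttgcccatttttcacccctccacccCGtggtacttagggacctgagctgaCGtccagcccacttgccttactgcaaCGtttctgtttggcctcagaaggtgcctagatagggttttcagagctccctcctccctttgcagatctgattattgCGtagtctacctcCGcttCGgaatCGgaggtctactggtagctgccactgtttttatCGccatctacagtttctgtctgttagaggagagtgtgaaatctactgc
The first window holds 45 CG and 80.0% G and C, and 98.1% of the 32851 promoters of that length held fewer CG. The second holds 9 CG and 52.3% G and C, and 54.2% of promoters held fewer. The counts are summed over the gene, so the share of each start was not measured.

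Plagl1 (chromosome 10, 13060504 to 13131694, plus strand) was near the lower end of what was measured. It stood at 1.45, 0.506 and 0.516 CPM in WT, at 4.45, 1.58 and 1.41 CPM in KD mH2A1.1, and at 0.440, 0.339 and 0.269 CPM in KD mH2A1.2, from 10 to 180 counts a library. Replicate 1 was the highest library in every group, and the KD mH2A1.1 and KD mH2A1.2 groups did not overlap. Between them Plagl1 was higher in KD mH2A1.1 by 2.81 ± 0.57 (adjusted p = 0.00766). Against WT, KD mH2A1.1 gave 1.59 ± 0.52 (adjusted p = 0.0749) and KD mH2A1.2 gave -1.23 ± 0.60 (adjusted p = 0.354). Without WT replicate 1 the first of these passed, at 2.27 (adjusted p = 0.0386). With the replicate number as a block it also passed, at 1.56 (adjusted p = 0.00589), though whether the numbers pair those libraries is not known.

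Igf2r (chromosome 17, 12682406 to 12769664, minus strand) moved little but with small spread. Its level was 333, 299 and 299 CPM in WT, 276, 285 and 228 CPM in KD mH2A1.1, and 439, 350 and 330 CPM in KD mH2A1.2. The highest KD mH2A1.1 library lay below the lowest of either other group. Between the knockdowns it was lower in KD mH2A1.1, at -0.50 ± 0.13 on the log2 scale (adjusted p = 0.0231), and against WT the values were -0.24 ± 0.13 (adjusted p = 0.261) for KD mH2A1.1 and 0.27 ± 0.13 (adjusted p = 0.372) for KD mH2A1.2. This call was lost without KD mH2A1.1 replicate 1 (adjusted p = 0.0539) or 3 (adjusted p = 0.0867), and without KD mH2A1.2 replicate 1 (adjusted p = 0.0586) or 2 (adjusted p = 0.053). Airn, the noncoding RNA that runs antisense through Igf2r, had values of -0.28 ± 0.17, -0.13 ± 0.17 and -0.15 ± 0.17 in the 3 comparisons and passed in none. The promoters of Igf2r and Plagl1 are shown beside those of Grb10, as the other members that differed between the knockdowns, in the same format.
Igf2r, chr17:12769657-12769956, minus strand: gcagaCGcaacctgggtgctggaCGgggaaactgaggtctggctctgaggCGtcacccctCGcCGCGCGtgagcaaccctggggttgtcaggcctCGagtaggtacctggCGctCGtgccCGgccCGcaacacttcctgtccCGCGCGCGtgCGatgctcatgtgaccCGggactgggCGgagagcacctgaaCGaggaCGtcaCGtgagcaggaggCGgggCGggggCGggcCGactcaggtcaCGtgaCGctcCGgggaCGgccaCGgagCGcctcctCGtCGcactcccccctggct
Plagl1, chr10:13090582-13090881, plus strand: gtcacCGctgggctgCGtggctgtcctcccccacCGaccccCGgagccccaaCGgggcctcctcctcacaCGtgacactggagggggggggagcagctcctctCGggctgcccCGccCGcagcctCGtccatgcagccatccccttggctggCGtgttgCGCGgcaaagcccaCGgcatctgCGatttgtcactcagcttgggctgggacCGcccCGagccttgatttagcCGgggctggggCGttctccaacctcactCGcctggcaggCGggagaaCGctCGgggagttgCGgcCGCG
These hold 34 and 26 CG, against a median of 7.0 over all promoters. The E-box CAGCTG, a palindrome that myogenic factors can bind, was searched on both strands and was in neither, nor in the Grb10 windows. Among the 16 promoter windows of 9 members it was in 1, of Mest, beside 16.3% of all promoters.

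H19 and Igf2 are neighbours on chromosome 7 (H19 at 142575529 to 142578143, Igf2 at 142650766 to 142666816, both minus strand) that share enhancers, with H19 expressed from the maternal copy and Igf2 from the paternal copy. H19 stood at 6267, 6825 and 10328 CPM in WT, at 5077, 5365 and 5040 CPM in KD mH2A1.1, and at 4120, 4575 and 6948 CPM in KD mH2A1.2. All 3 KD mH2A1.1 libraries lay below WT and close to each other (SD 178 CPM), while the KD mH2A1.2 libraries overlapped WT. The log2 fold changes against WT were -0.60 ± 0.24 (adjusted p = 0.124) for KD mH2A1.1 and -0.58 ± 0.24 (adjusted p = 0.263) for KD mH2A1.2, and between the knockdowns the value was -0.01 ± 0.24 (adjusted p = 0.973). None of these passed.

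Igf2 stood at 168, 317 and 466 CPM in WT, at 381, 466 and 512 CPM in KD mH2A1.1, and at 112, 195 and 360 CPM in KD mH2A1.2. In each group replicate 1 was the lowest library and replicate 3 the highest. The KD mH2A1.1 libraries lay above those of KD mH2A1.2 and overlapped WT. No comparison passed in the fit without a block. The log2 fold changes were 0.52 ± 0.41 (adjusted p = 0.438) and -0.51 ± 0.41 (adjusted p = 0.612) against WT and 1.03 ± 0.42 (adjusted p = 0.102) between the knockdowns. Without KD mH2A1.2 replicate 3 the last of these passed, at 1.56 (adjusted p = 0.0291). With the replicate number as a block it also passed, at 1.19 (adjusted p = 0.00434), though whether the numbers pair the libraries of the knockdowns is not known. Gm49394, an annotated gene on the same strand, shares 3596 exon bases with Igf2 and held 530 to 3724 counts a library. The split of reads between them is therefore uncertain. With its reads added to Igf2, and no block, the 3 comparisons did not pass.

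The ratio of H19 to Igf2 counts, computed after the values were seen and given without a test, was 37.3, 21.5 and 22.2 in WT, 13.3, 11.5 and 9.85 in KD mH2A1.1, and 36.7, 23.5 and 19.3 in KD mH2A1.2. The 3 KD mH2A1.1 libraries had the lowest ratios, with a geometric mean 2.28-fold below WT and 2.22-fold below KD mH2A1.2, and the KD mH2A1.2 libraries spanned nearly the range of WT. With the Gm49394 reads added to Igf2 these folds were 2.11 and 2.01.

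**Figure D3:**
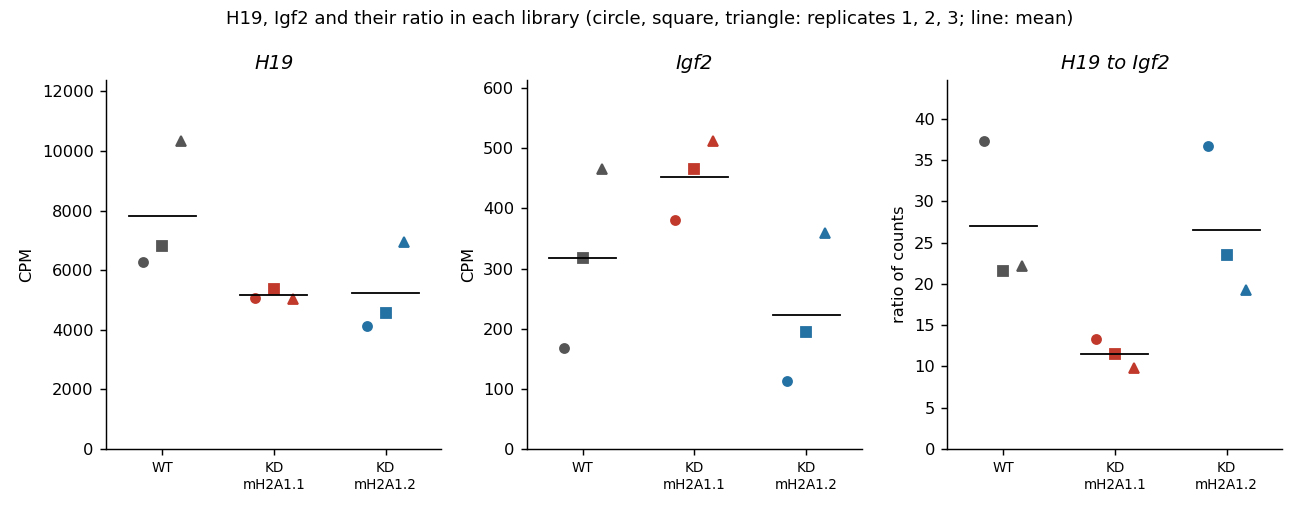
H19 and Igf2 in CPM and the ratio of their counts in each library, on linear axes from 0; circles, squares and triangles are replicates 1, 2 and 3 and lines are means. The ratio is 9.85 to 13.3 in KD mH2A1.1 and 19.3 to 37.3 in the other 6 libraries.

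The genes whose pattern over the 9 libraries was most like that of H19 were sought by the root mean square difference of log2 CPM, each centred on its own mean, among 14373 genes of at least 1 CPM. They were Acsl6, a fatty acid activating enzyme, at 0.077, Pfkm, the muscle form of phosphofructokinase, at 0.107, and Pdxp, a phosphatase, at 0.119, where H19 itself varied by 0.377. For Igf2, which varied by 0.722, they were Ak5, an adenylate kinase, at 0.176, Ldhb, a lactate dehydrogenase subunit, at 0.245, and Gm5523 at 0.298. None of these lies on chromosome 7.

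Peg3 (chromosome 7, 6703892 to 6730431, minus strand) stood at 856, 724 and 828 CPM in WT, at 554, 868 and 771 CPM in KD mH2A1.1, and at 608, 516 and 478 CPM in KD mH2A1.2. The KD mH2A1.2 libraries were all below WT, and the KD mH2A1.1 libraries overlapped both. The values were -0.13 ± 0.17 (adjusted p = 0.636) for KD mH2A1.1 against WT, -0.59 ± 0.17 (adjusted p = 0.111) for KD mH2A1.2 against WT, and 0.45 ± 0.17 (adjusted p = 0.0786) between the knockdowns. Leaving out KD mH2A1.1 replicate 1 brought the second to an adjusted p of 0.0499 and the third to 0.0241.

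Mest (chromosome 6, 30723547 to 30748465, plus strand) stood at 23.9, 26.3 and 12.3 CPM in WT, at 44.0, 16.1 and 18.5 CPM in KD mH2A1.1, and at 18.4, 14.6 and 10.7 CPM in KD mH2A1.2. The groups overlapped, and KD mH2A1.1 replicate 1 was far above its replicates. Without it the log2 fold change against WT, 0.33 ± 0.39 (adjusted p = 0.613), turned to -0.26 (adjusted p = 0.689). The other values were -0.51 ± 0.40 (adjusted p = 0.591) for KD mH2A1.2 against WT and 0.84 ± 0.40 (adjusted p = 0.153) between the knockdowns.

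The 3 members of the Dlk1-Dio3 domain on chromosome 12 were Dlk1 (109452823 to 109463336), Meg3 (109541001 to 109571726) and Rian (109603940 to 109661716), all on the plus strand. They were low and passed in no comparison in the fit without a block. Dlk1 stood at 0.696, 2.27 and 6.50 CPM in WT, at 0.420, 1.41 and 2.70 CPM in KD mH2A1.1, and at 0.248, 1.57 and 4.91 CPM in KD mH2A1.2. Its libraries differed more by replicate number than by group, with replicate 1 lowest and replicate 3 highest in each group. The value for KD mH2A1.1 against WT was -1.06 ± 0.96 (adjusted p = 0.497). With the replicate block it was -0.93 and passed (adjusted p = 0.0457), though whether the numbers pair those libraries is not known. Meg3 was at 0.173 to 0.413 CPM, or 7 to 16 counts a library, and Rian at 0.469 to 1.73 CPM, or 19 to 67 counts. Their groups overlapped in each comparison, and their log2 fold changes lay between -0.51 and -0.06. Rtl1, a further gene of this domain, had 7 to 116 counts a library. In KD mH2A1.2 against WT it gave -1.65 ± 0.73 (adjusted p = 0.306, 0.0493 with the replicate block and 0.186 in DESeq2). The 4 tested genes of the domain had values below 0 in both comparisons with WT, and 0 passed in the fit without a block.

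The other genes of the imprinted domains were read as neighbours of the members, an arrangement chosen after the values were seen. In the Grb10 domain, Ddc, which makes dopamine and serotonin from their precursors, stood at 18.1, 27.7 and 32.5 CPM in WT, at 36.4, 53.6 and 51.5 CPM in KD mH2A1.1, and at 10.1, 13.9 and 18.8 CPM in KD mH2A1.2. Its groups lay in the order seen for Grb10, with KD mH2A1.2 and WT overlapping. Ddc was higher in KD mH2A1.1 than in KD mH2A1.2 by 1.73 ± 0.27 (adjusted p = 0.00204), with 0.85 ± 0.26 (adjusted p = 0.0585) and -0.87 ± 0.26 (adjusted p = 0.126) against WT. With the replicate block both values against WT passed (adjusted p = 0.00216 for KD mH2A1.1 and 0.00788 for KD mH2A1.2). In DESeq2 both passed as well (adjusted p = 0.0137 and 0.0233). Cobl, an actin nucleator on the other side of Grb10, gave 0.44 ± 0.15 (adjusted p = 0.0602) between the knockdowns. This value passed with the replicate block (0.43, adjusted p = 0.0147) and in DESeq2 (0.45, adjusted p = 0.0439). Against WT it gave -0.60 ± 0.15 in KD mH2A1.2 (adjusted p = 0.072), and with the replicate block this passed (adjusted p = 0.0165).

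In the Peg3 domain, Usp29, a ubiquitin protease gene that starts beside Peg3 on the other strand, stood at 7.95, 5.70 and 6.55 CPM in WT, at 5.85, 7.83 and 7.93 CPM in KD mH2A1.1, and at 3.44, 3.47 and 2.77 CPM in KD mH2A1.2. It fell with mH2A1.2 knockdown by 1.06 ± 0.19 on the log2 scale (adjusted p = 0.0247) and was higher in KD mH2A1.1 than in KD mH2A1.2 by 1.16 ± 0.19 (adjusted p = 0.00282). Zim1, a zinc finger gene at the other side of Peg3, gave -0.96 ± 0.25 (adjusted p = 0.0825) in KD mH2A1.2 against WT. All 3 tested genes of this domain were lower in KD mH2A1.2 than in WT, from -1.06 to -0.59, and 1 passed. In DESeq2 all 3 passed (adjusted p = 3.49e-05 for Usp29, 0.0051 for Zim1 and 0.0162 for Peg3). With the replicate block Usp29 passed (adjusted p = 0.0232), whereas Zim1 (0.0826) and Peg3 (0.106) did not.

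The Kcnq1 domain, next to H19 and Igf2 on chromosome 7, held no member. Cdkn1c, an inhibitor of cyclin-dependent kinases, stood at 7.25, 7.81 and 4.00 CPM in WT, at 39.0, 19.1 and 8.34 CPM in KD mH2A1.1, and at 4.68, 2.95 and 1.53 CPM in KD mH2A1.2. All KD mH2A1.1 libraries lay above the others, with values of 1.80 ± 0.53 (adjusted p = 0.0534) against WT and 2.86 ± 0.56 (adjusted p = 0.00633) against KD mH2A1.2. The first of these passed with the replicate block (1.60, adjusted p = 0.0039) and in DESeq2 (1.80, adjusted p = 0.0373). Cdkn1c in KD mH2A1.2 against WT gave -1.06 ± 0.54 (adjusted p = 0.387), and with the replicate block -1.16, which passed (adjusted p = 0.0365). Slc22a18, a transporter, had 9, 8 and 4 counts in WT, 37, 35 and 51 counts in KD mH2A1.1, and 15, 14 and 9 counts in KD mH2A1.2. Kcnq1, a potassium channel, had 18, 18 and 31 counts in KD mH2A1.1 against 0, 3 and 4 in KD mH2A1.2 and 1, 6 and 8 in WT. Both genes passed the filter on low counts only through the KD mH2A1.1 libraries, where they were high, so their test results are not used as support. Tssc4 was higher in KD mH2A1.1 than in KD mH2A1.2, by 0.59 ± 0.19 (adjusted p = 0.0453), and gave 0.61 ± 0.19 (adjusted p = 0.059) against WT. Kcnq1ot1, the noncoding RNA of the domain, gave 0.06 ± 0.15 against WT in KD mH2A1.1 (adjusted p = 0.836).

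**Figure D4:**
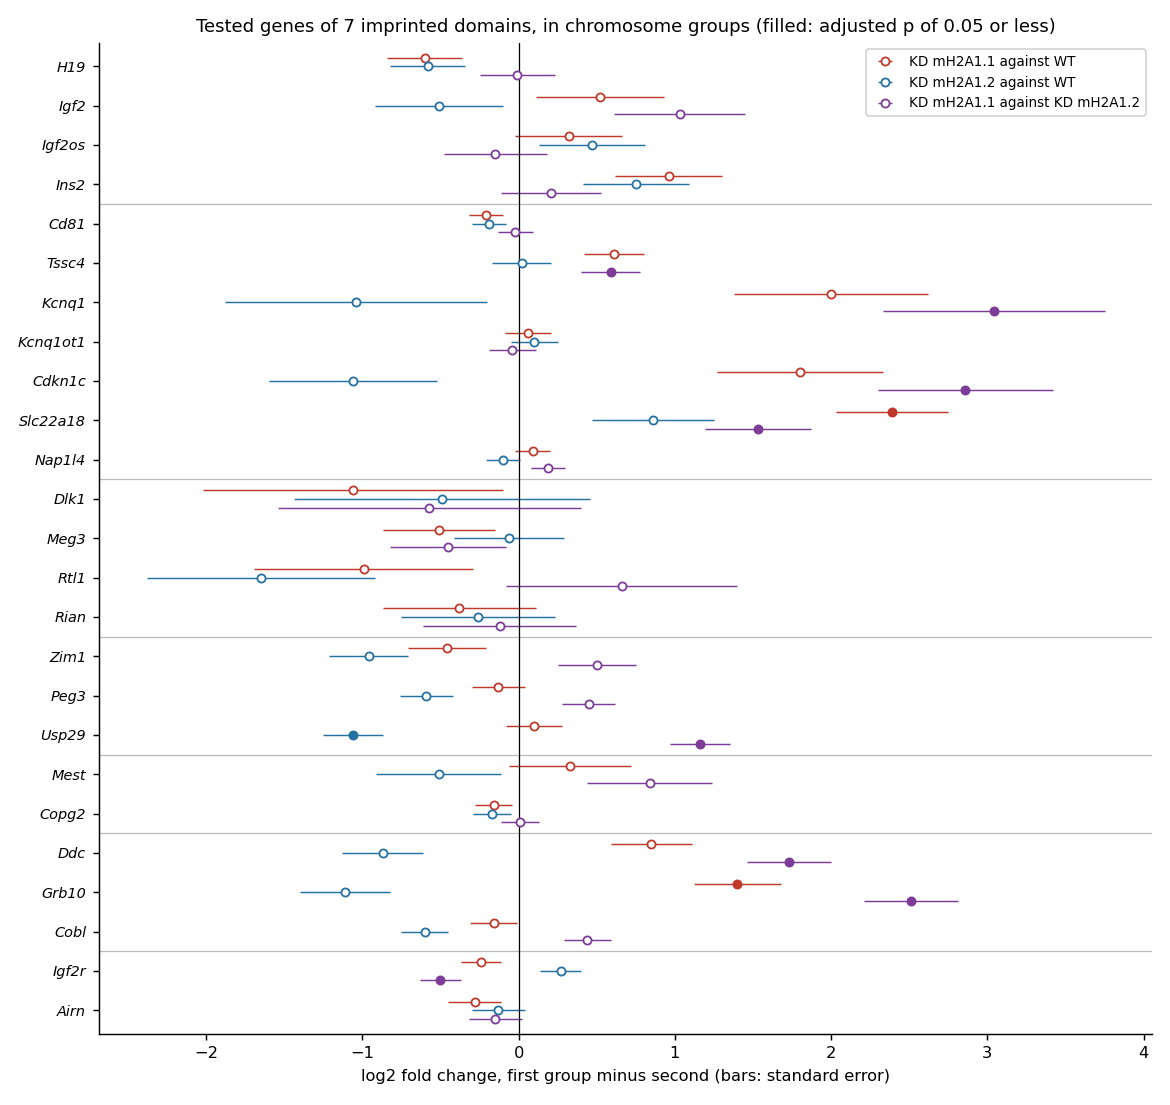
Log2 fold change of the tested genes of 7 imprinted domains, in order of position and separated by grey lines, with standard errors as bars; filled points passed at an adjusted p of 0.05 or less. Ddc and Grb10 differ between the knockdowns by 1.73 and 2.51, whereas Cobl beside them is at 0.44.

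Of 56 further imprinted genes 40 were tested. Against WT, KD mH2A1.1 had 3 that passed as higher and 1 that passed as lower, beside 11.1% of all tested genes: Slc22a18, with the limit just given, Peg10, a retrotransposon-derived gene, by 0.89 ± 0.21 (adjusted p = 0.0248), Snhg14, a long noncoding transcript, by 0.50 ± 0.14 (adjusted p = 0.0488), and Trappc9, a trafficking subunit, at -0.39 ± 0.11 (adjusted p = 0.0487). In KD mH2A1.2 against WT, beside 2.35% of all tested genes, 1 passed as higher, Peg13, a noncoding RNA, at 0.57 ± 0.13 (adjusted p = 0.0491), and 1 as lower, Usp29, while 6 passed with the block. Between the knockdowns 7 passed as higher, Slc22a18 and Kcnq1 included, and 1 as lower, beside 22.5% of all tested genes, and Snhg14 was among the higher at 0.63 ± 0.14 (adjusted p = 0.0123). In KD mH2A1.1 against WT and between the knockdowns, 4 and 8 of 40 were shares near those of all genes. Slc22a18 is counted in both and Kcnq1 in the second, although they entered the test only through KD mH2A1.1, so nothing is drawn from these counts. The median log2 fold changes of the 40 genes were 0.01, -0.05 and 0.03. The 4 calls in KD mH2A1.1 against WT became 1 without WT replicate 2 or 3, and 2 without WT replicate 1, KD mH2A1.1 replicate 1 or KD mH2A1.2 replicate 2. The 2 in KD mH2A1.2 against WT became 1 without WT replicate 2 or KD mH2A1.1 replicate 2 or 3, and 0 without WT replicate 1 or 3 or any KD mH2A1.2 library. The 8 between the knockdowns became 5 without KD mH2A1.2 replicate 2.

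Other genes of IGF signalling moved in both directions. With mH2A1.1 knockdown 5 of 18 tested genes passed against WT, all of them lower, beside 11.1% of all tested genes (4.93% lower). Igf1, the ligand related to Igf2, stood at 14.4, 28.0 and 23.3 CPM in WT, at 3.24, 6.20 and 6.91 CPM in KD mH2A1.1, and at 42.8, 44.3 and 55.9 CPM in KD mH2A1.2. The 3 groups did not overlap, and their order was the reverse of that of Grb10. Igf1 fell in KD mH2A1.1 against WT by 2.00 ± 0.30 (adjusted p = 0.00471), gave 1.12 ± 0.28 in KD mH2A1.2 against WT (adjusted p = 0.0716, and 0.012 with the block), and differed between the knockdowns by -3.13 ± 0.31 (adjusted p = 0.000287). Igf1r, the receptor through which both ligands signal, fell by 0.55 ± 0.15 (adjusted p = 0.0399), and so did the binding proteins Igfbp4, by 1.25 ± 0.24 (adjusted p = 0.0127), and Igfbp7, by 0.62 ± 0.14 (adjusted p = 0.0223), and the transcription factor Foxo1, by 0.84 ± 0.19 (adjusted p = 0.0247).

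In KD mH2A1.2 against WT, 2 of 18 rose, Igfbp7 by 1.00 ± 0.14 (adjusted p = 0.0106) and the receptor substrate Irs1 by 0.74 ± 0.11 (adjusted p = 0.0126), beside 1.37% of all tested genes that passed as higher, and 5 passed with the block, Igfbp5 among them (-0.91, adjusted p = 0.0456, against -0.89 ± 0.26 and 0.122 without it). Between the knockdowns 7 were lower and 3 higher in KD mH2A1.1, beside 10.5% and 12.0% of all tested genes. Among the higher was Igfbp5, the most abundant binding protein of these myotubes, at 4488, 6303 and 3721 CPM in KD mH2A1.1 against 2435, 1644 and 1398 CPM in KD mH2A1.2 (1.41 ± 0.27, adjusted p = 0.00567). The median log2 fold changes of the 18 genes were -0.14, 0.30 and -0.48. The 5 calls in KD mH2A1.1 against WT became 1 without KD mH2A1.1 replicate 1, and 2 without WT replicate 2 or 3 or KD mH2A1.1 replicate 3. The 2 in KD mH2A1.2 against WT became 1 without WT replicate 1 or KD mH2A1.2 replicate 2, and the 10 between the knockdowns became 6 without KD mH2A1.2 replicate 2.

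**Figure D5:**
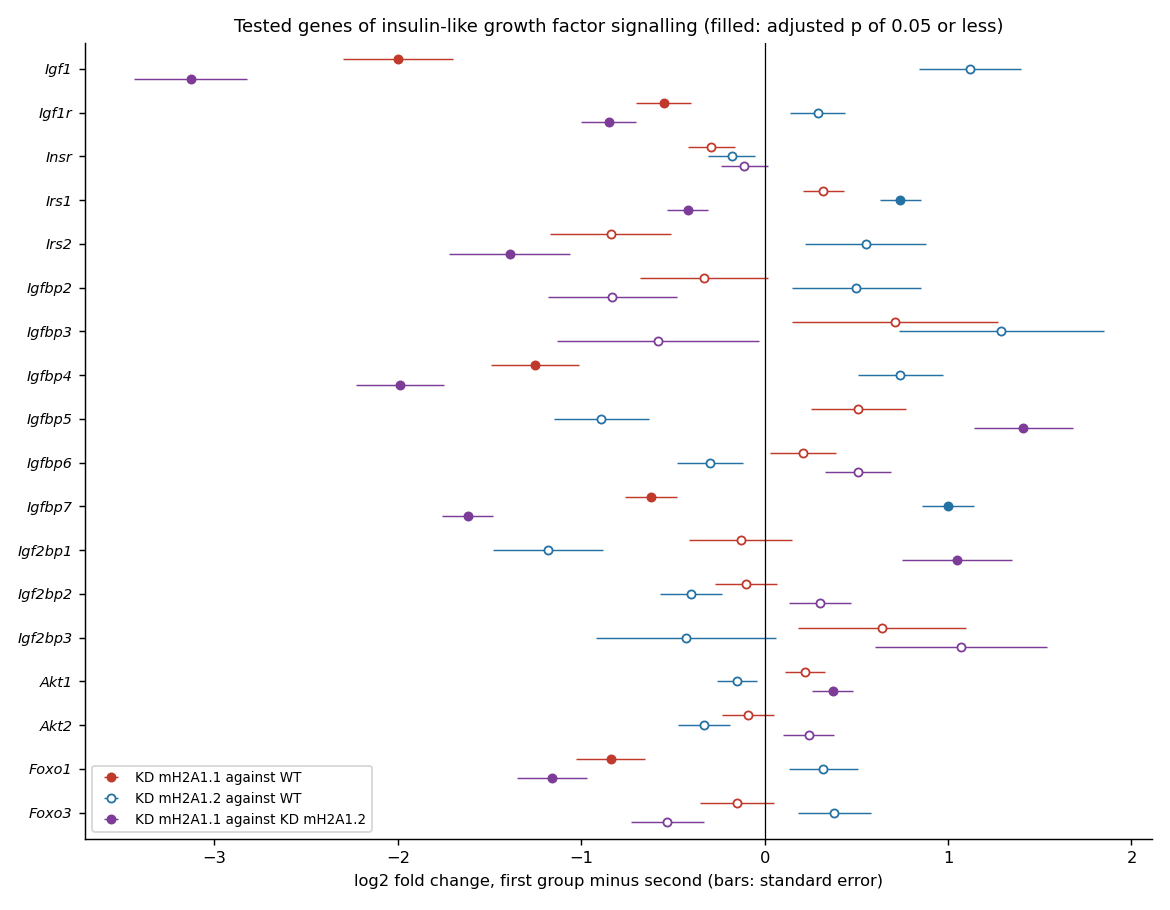
Log2 fold change of the 18 tested genes of IGF signalling in the 3 comparisons, first group minus second, with standard errors as bars; filled points passed at an adjusted p of 0.05 or less. Igf1 has the lowest value, -3.13 between the knockdowns, and Igfbp5 the highest filled one there, 1.41.

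Markers of cell state were read beside these genes. Of 8 markers of proliferating or undifferentiated myoblasts, edgeR called 0 in KD mH2A1.1 against WT, beside 11.1% of all tested genes. There 5 had an unadjusted p under 0.05 in edgeR: Mki67, Cdk1, Top2a and Pax7, which were higher, and Id3, which was lower (-0.70 ± 0.29). DESeq2 called 2 in that comparison, Mki67 and Cdk1, both higher. In KD mH2A1.2 against WT edgeR called 1, Myf5, which was lower (-0.84 ± 0.18, adjusted p = 0.0422), beside 2.35% of all tested genes. Between the knockdowns all 8 passed, beside 22.5% of all tested genes, with 6 higher in KD mH2A1.1, among them Mki67 and Top2a of the cell cycle and Pax7 and Myf5 of undifferentiated myoblasts, and 2 lower, Id1 and Id3. Their sums were 412 to 775 CPM in KD mH2A1.1, 292 to 447 CPM in WT and 245 to 335 CPM in KD mH2A1.2, with WT overlapping both.

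Of 8 myotube markers 2 passed in KD mH2A1.1 against WT, beside 11.1% of all tested genes. Both fell, Myog by 0.66 ± 0.14 (adjusted p = 0.0204) and the fusion protein Mymx by 0.82 ± 0.18 (adjusted p = 0.0221). Both were also lower between the knockdowns. The muscle creatine kinase Ckm and the troponin Tnnt3 were higher in KD mH2A1.1 than in KD mH2A1.2, by 1.14 ± 0.18 (adjusted p = 0.00241) and 0.73 ± 0.18 (adjusted p = 0.0169). So 2 passed in each direction there, beside 12.0% of all tested genes higher and 10.5% lower. In the fit without a block Tnnt3 alone passed in KD mH2A1.2 against WT, at -0.96 ± 0.18 (adjusted p = 0.028), beside 2.35% of all tested genes. Ckm gave -0.70 ± 0.18 there (adjusted p = 0.0786). It passed with the replicate block (-0.70, adjusted p = 0.0132) and in DESeq2 (-0.71, adjusted p = 0.00685). Of the 8 markers, 2 had values above 0 in that comparison.

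Of 6 fibroblast markers 2 passed in KD mH2A1.1 against WT, beside 11.1% of all tested genes. They were Col3a1, a collagen, at -1.06 ± 0.21 (adjusted p = 0.0142) and Lum, a matrix proteoglycan, at -2.74 ± 0.43 (adjusted p = 0.00608). In KD mH2A1.2 against WT 1 passed, Dpt, a matrix protein, at 1.74 ± 0.36 (adjusted p = 0.0365), beside 2.35% of all tested genes. Between the knockdowns these 3 passed as lower in KD mH2A1.1, beside 10.5% of all tested genes. Their summed level, 3206 to 5289 CPM in KD mH2A1.1, 7736 to 9398 CPM in WT and 9679 to 13335 CPM in KD mH2A1.2, was nearly all Col3a1, and not all of the others shared its order. Lum had its highest mean in WT, 16.0 CPM against 2.41 and 11.2 CPM, Pdgfra had 12.6 CPM in WT and 13.6 CPM in KD mH2A1.1, and Thy1 had 0.511, 0.452 and 0.509 CPM in WT, KD mH2A1.1 and KD mH2A1.2. The part of these markers, and of the interferon-induced genes, in the results for the 10 imprinted genes was not tested.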

How the data were processed

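Polyadenylated RNA of 9 libraries was sequenced as single reads of 50 bp. The authors estimated reads per gene with Salmon on mm10 (GRCm38), and the deposited values are estimated counts, as whole numbers without normalization. The authors' table of normalized counts was not used. The annotation release and any use of strand are not given in the sources used here, and genes that overlap others (Igf2 with Gm49394 and Igf2os, Mest with Copg2, Meg3 with Gm26906, Igf2r with Airn) are uncertain. GENCODE M21 named 52762 of the 52780 genes and gave positions and exon lengths.

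Counts were tested in R 4.3.3 with edgeR 4.0.16 (legacy quasi-likelihood test, TMM, filterByExpr), with all 9 libraries in 1 model of 3 groups and no block, and Benjamini-Hochberg adjustment over 19545 genes. A gene passed at an adjusted p of 0.05 or less. The test was checked on simulated data. CPM are TMM-scaled. TPM were computed over the union of exons. Alternatives were DESeq2 1.42.0, its size factors, the newer quasi-likelihood form, other filters, the replicate block, only the groups compared, a stricter threshold and leaving out each library. Adding the reads of Gm49394 to Igf2, the ratio of H19 to Igf2 and the grouping by domain were chosen after the values were seen. The members and lists were chosen with earlier results of these data known.

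Labels number the replicates 1 to 3 in each group and do not say what a number shares. Library names run in sequence within each number over the 3 groups, such as CT15, KD16 and KD17 for replicate 1. Deviations from the group means of same-numbered libraries correlated at 0.196 to 0.331 between KD mH2A1.2 and WT, so there the numbers were taken to pair the libraries, from this correlation alone. The correlations were 0.084 to 0.098 between KD mH2A1.1 and WT and 0.092 to 0.116 between the knockdowns. Libraries of different numbers gave -0.074 to -0.021 and -0.096 to -0.012 in these comparisons. The same-number values are above these but low, so whether the numbers pair those libraries is not known. The block was fitted in 1 model of all 9 libraries, so it applies to all 3 comparisons alike. Named genes are all 10 members, H2afy, from each other list the genes that passed in a comparison, up to the 6 with the smallest adjusted p, and the 3 most like H19 and Igf2. Domain neighbours named beside them (Airn, Cobl, Zim1, Kcnq1ot1, Rtl1, Tssc4) and Gm49394 were chosen after their values were seen. No libraries agreed within sampling noise. Limits at 0 counts cover counting error only, since the reads carry no molecular identifiers.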

Additional observations from a re-analysis of the deposited data

How the results depend on the processing

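DESeq2's size factors in edgeR and the newer quasi-likelihood form changed no call of a member and no count of calls by over 1.5 times, nor did requiring 10 counts in every library, which left out Dlk1 and Meg3. A fit on only the 2 groups compared left 0 imprint maintenance genes called in KD mH2A1.1 against WT, against 1. DESeq2 called, for KD mH2A1.1 against WT, 2 members, 7 other imprinted genes, 2 imprint maintenance genes and 3354 genes in all, with Plagl1 (1.59) added. Without a filter on low counts 2 members (Plagl1 at 1.58) and 7 other imprinted genes passed. A stricter threshold (adjusted p under 0.01 together with a log2 change of 0.8 or more in size) left 0 members (Grb10 stayed at 1.40), 1 other imprinted gene, 1 IGF gene, 0 imprint maintenance genes and 352 genes. In KD mH2A1.2 against WT, DESeq2 called 2 members (Peg3 at -0.59, Grb10 at -1.11), 5 other imprinted genes, 5 IGF genes and 1096 genes, no filter gave 1 member (Grb10 at -1.11), 5 and 4, and the stricter threshold 0, 0 and 35 genes. Between the knockdowns DESeq2 added Peg3 (0.46), no filter added Igf2 (1.02), and the stricter threshold left 3 other imprinted genes, 6 IGF genes, 1 imprint maintenance gene and 1247 genes, with Igf2r (-0.50) lost. The causes were not tested.

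With the replicate block, KD mH2A1.1 against WT held 3 members (Dlk1 at -0.93 and Plagl1 at 1.56 added), 9 other imprinted genes, 2 imprint maintenance genes and 4065 genes. KD mH2A1.2 against WT held 1 member (Grb10 at -1.06), 6 other imprinted genes, 5 IGF genes and 1005 genes under the block. Between the knockdowns the block added Igf2 (1.19) and turned H19 from -0.01 to 0.04. It changed no other call of a member. Same-numbered libraries correlated at only 0.084 to 0.116 in the comparisons with KD mH2A1.1, so whether the numbers pair those libraries is not known. Every library did correlate best with its own number (different numbers gave at most -0.012), and library names run in sequence within each number. These are hints, and the labels do not say what a number shares.

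With each library left out in turn, members called ranged over 0 to 2, 0 to 1 and 2 to 4 in the 3 comparisons (KD mH2A1.1 against WT, KD mH2A1.2 against WT, between the knockdowns), other imprinted genes over 1 to 6, 0 to 2 and 5 to 10, IGF genes over 1 to 6, 1 to 3 and 6 to 11, imprint maintenance genes over 0 to 3, 0 to 0 and 1 to 4, and all genes over 605 to 2928, 74 to 544 and 2251 to 4616. For KD mH2A1.1 against WT the 2171 calls became 605 and 810 without WT replicates 2 and 3, and 689 and 666 without KD mH2A1.1 replicates 1 and 3. For KD mH2A1.2 against WT the 460 calls became 74, 267 and 99 without WT replicates 1, 2 and 3, 231 without KD mH2A1.1 replicate 3, and 91, 81 and 240 without KD mH2A1.2 replicates 1, 2 and 3. Between the knockdowns the 4397 calls became 2405 and 2764 without KD mH2A1.1 replicates 1 and 3 and 2251 without KD mH2A1.2 replicate 2. Log2 fold changes in the same order ranged over -0.73 to -0.35, -0.84 to -0.34 and -0.16 to 0.24 for H19, 0.21 to 0.89, -1.05 to -0.13 and 0.71 to 1.56 for Igf2, -1.78 to 0.02, -1.79 to 0.59 and -1.29 to 0.73 for Dlk1, -0.80 to -0.33, -0.22 to 0.12 and -0.75 to -0.29 for Meg3, -1.14 to 0.10, -0.53 to 0.22 and -0.88 to 0.17 for Rian, -0.28 to 0.04, -0.69 to -0.51 and 0.31 to 0.62 for Peg3, -0.26 to 0.58, -0.79 to -0.31 and 0.25 to 1.1 for Mest, 0.86 to 2.27, -1.48 to -0.55 and 2.08 to 3.10 for Plagl1, 1.18 to 1.78, -1.33 to -0.72 and 2.32 to 2.67 for Grb10, and -0.30 to -0.15, 0.13 to 0.35 and -0.59 to -0.37 for Igf2r. Signs of Dlk1, Meg3, Rian, Peg3, Mest and H19 turned in at least 1 comparison, none of them a value that passed. Depth gave Meg3 and Rian 7 to 67 counts a library.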

Other observations

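Genes that keep imprints were read beside the imprinted genes. Of 12 listed, 11 were tested. With mH2A1.1 knockdown 1 passed against WT, beside 11.1% of all tested genes. It was Zfp445, a zinc finger protein that binds imprinting control regions, lower at -0.37 ± 0.10 (adjusted p = 0.0467). In KD mH2A1.2 against WT neither edgeR nor DESeq2 called any (0 of 11), beside 2.35% of all tested genes in edgeR. At an unadjusted p under 0.05 in edgeR that comparison held 1, Uhrf1. Between the knockdowns 3 passed, beside 22.5% of all tested genes. Zfp445 was lower in KD mH2A1.1 at -0.39 ± 0.10 (adjusted p = 0.0251). Uhrf1 and Dnmt1, which copy DNA methylation at replication, were higher in KD mH2A1.1 by 1.91 ± 0.36 (adjusted p = 0.00521) and 0.62 ± 0.16 (adjusted p = 0.0205). Uhrf1 stood at 39.3, 23.4 and 17.3 CPM in WT, at 77.3, 29.7 and 55.3 CPM in KD mH2A1.1, and at 15.0, 12.4 and 16.0 CPM in KD mH2A1.2. The single call against WT was lost without WT replicate 2 or 3, KD mH2A1.1 replicate 1 or 3, or KD mH2A1.2 replicate 2 or 3 (0 called), and became 3 without KD mH2A1.1 replicate 2. The 3 calls between the knockdowns became 1 without KD mH2A1.1 replicate 1 or KD mH2A1.2 replicate 2.

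The nearest tested protein-coding genes outside the lists on either side of the 10 members numbered 14. They lay from 29.8 kb (Cep41, by Mest) to 4461.8 kb (Sec61g, by Grb10) away, so some are not close neighbours. In KD mH2A1.1 against WT 1 of them passed, Sf3b5 beside Plagl1 at 0.55 ± 0.13 (adjusted p = 0.0296), beside 11.1% of all tested genes. In KD mH2A1.2 against WT edgeR called 0, beside 2.35%, and 2 had an unadjusted p under 0.05. Between the knockdowns 2 passed, beside 22.5% of all tested genes. They were Ltv1 on the other side of Plagl1 at 0.51 ± 0.12 (adjusted p = 0.0166) and Fignl1 by Grb10, 121.5 kb away, at 1.38 ± 0.32 (adjusted p = 0.0134). These flanking genes were read after the values of the members were seen.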
